A study of Mus musculus with 26 samples.

Results

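The miR-135 family was followed through 26 small RNA libraries from CA1, a field of the mouse hippocampus needed for forming memories. The family rows were chosen by name, not by their values, though earlier results of these data were known. They are mmu-miR-135a-5p, mmu-miR-135a-1-3p, mmu-miR-135a-2-3p and mmu-miR-135b-5p, 4 of the 1915 entries of the authors' table of raw counts. All 4 had enough reads to be tested, among 605 such miRNAs. The remaining arm, miR-135b-3p, had from 0 to 12 reads in a library and was not tested.

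The libraries fell into 3 groups. There were 9 from wild type littermates given vehicle, 7 from CamkdeltaC transgenic mice given vehicle and 10 from CamkdeltaC transgenic mice given Vorinostat. Vorinostat, also called SAHA, inhibits histone deacetylases and was offered with the drinking water, as was the vehicle. Treatment began at 2 months of age and ran for 4 weeks, and the mice were 3 months old when CA1 was taken. Both sexes were used, and the sources used here do not give the sex behind each library. As background, the transgene encodes the deltaC form of calcium/calmodulin-dependent kinase II, and mice of this name express it in heart muscle and develop heart failure; the labels name no promoter. None of these libraries came from wild type mice given Vorinostat. The labels leave unsaid whether every library came from its own animal, and p-values therefore cover library-to-library spread.

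A miRNA is cut from a hairpin precursor, whose arms give a 5p and a 3p strand. One strand is usually loaded onto Argonaute and the other is mostly lost. The loaded strand finds messenger RNAs by its seed, bases 2 to 8 from its 5′ end. In the brain, miR-135 is known for repressing the serotonin transporter and a serotonin receptor in raphe neurons, and it has been linked to the size and plasticity of dendritic spines in hippocampal neurons.

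The mature strands show which arms can be told apart. Capitals mark the seed, and sequences are from RefSeq for GRCm38.p6 (the assembly of mm10), which held 4 of the 5 arms looked for.
mmu-miR-135a-5p: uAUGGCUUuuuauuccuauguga
mmu-miR-135a-2-3p: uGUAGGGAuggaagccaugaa
mmu-miR-135a-1-3p: uAUAGGGAuuggagccguggcg
mmu-miR-135b-3p: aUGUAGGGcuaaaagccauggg
The 3p strands of both miR-135a hairpins had different seeds. Counting from the 5′ end, miR-135a-1-3p and miR-135a-2-3p differed within the seed by A2G. For each of the 4 seeds shown, no miRNA of another name in the RefSeq table shared it. That table lacks miR-135b-5p, which has the seed of miR-135a-5p, so the search could not find it.

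Both miR-135a hairpins are shown because miR-135a-5p is the same in each, so its reads cannot be assigned to a locus, whereas the 3p reads can. Capitals mark the mature arms.
Mir135a-1: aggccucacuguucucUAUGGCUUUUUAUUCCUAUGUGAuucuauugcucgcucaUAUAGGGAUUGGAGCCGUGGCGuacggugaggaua
Mir135a-2: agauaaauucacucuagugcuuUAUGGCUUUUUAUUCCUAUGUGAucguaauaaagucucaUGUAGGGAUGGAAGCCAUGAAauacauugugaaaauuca
Mir135a-1 lies at chr9:106154124-106154213 on the plus strand, in an intron of D030055H07Rik, and overlaps an exon of Glyctk, which is on the opposite strand. Mir135a-2 lies at chr10:92072086-92072185 on the minus strand, in an intron of the long non-coding RNA Rmst, a transcript known from neural differentiation. Mir135b lies at chr1:132198088-132198184 on the plus strand, in an intron of Lemd1. miR-135b-5p has the seed of miR-135a-5p and differs little from it elsewhere, so the split of reads between them rests on how the authors counted, a step the sources used here do not describe.

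Library totals ran from 0.585 to 17.6 M counts (mega-counts) in wild type vehicle, from 6.02 to 24.8 M in transgenic vehicle and from 3.89 to 15.7 M with Vorinostat. A pair of libraries stood apart from the others, wild type vehicle replicate 1, which was also the shallowest, and Vorinostat replicate 8. Summed neuronal markers (5 of 5 present, among them miR-124-3p, miR-128-3p and miR-9-5p) were lowest in wild type vehicle replicate 1, at 196100 CPM (counts per 1000000 counts, after scaling). They reached up to 468600 CPM elsewhere. That sum follows mainly miR-128-3p and miR-9-5p, which averaged 229300 and 126100 CPM over all libraries, against 6729 CPM for miR-124-3p. Sensory and thalamic markers (3 of 3 present) summed to 1330 CPM in wild type vehicle replicate 1 and 511 CPM in Vorinostat replicate 8, against group medians of 119 and 138 CPM. Hindbrain markers (4 of 4 present) summed to 95.7 and 156 CPM in these libraries, against medians of 31.6 and 41.7 CPM. In wild type vehicle replicate 1, erythrocyte markers (3 of 3 present) were also high, at 2033 CPM against a median of 649.7, and microglia and leukocyte markers (5 of 5 present) low, at 76.99 CPM against 349.3. That library was also its group's highest for oligodendrocyte markers (1592 CPM, median 1050) and heart and muscle markers (520.2, median 423.9). It was its group's lowest for endothelium markers (3094 CPM, median 5299) and choroid plexus and ependyma markers (382.9, median 611.2). No defining marker was at 0 in every library, and the part of these markers in the results below was not tested. Column headers also gave the sequencing lane, L001 for 13 libraries and L002 for 13, and each group had libraries in both.

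miR-135a-5p, the loaded strand of both miR-135a hairpins, was the most abundant family member. It averaged 254.5 ± 156 CPM in wild type vehicle (SD, n = 9), 343 ± 159 CPM in transgenic vehicle (SD, n = 7) and 298 ± 171 CPM with Vorinostat (SD, n = 10). Over all libraries it ranked 115 of the 605 tested miRNAs by mean CPM. In wild type vehicle it ran from 29.1 through a median of 233 to 568 CPM. In transgenic vehicle the lowest, median and highest libraries held 169.5, 377 and 583 CPM. With Vorinostat they held 67.4, 351 and 552 CPM. The groups overlapped over most of their range, and both of the lowest libraries were those that stood apart. Within groups its log2 CPM had an SD of 1.03, larger than that of 88.8% of tested miRNAs, whose median SD was 0.617.

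miR-135b-5p, the loaded strand of the Mir135b hairpin, was far scarcer, with the same order of group means. It averaged 22.3 ± 12.5 CPM in wild type vehicle (SD, n = 9), 32.1 ± 20.2 CPM in transgenic vehicle (SD, n = 7) and 29.3 ± 15.6 CPM with Vorinostat (SD, n = 10). Its lowest, median and highest values were 6.24, 22.7 and 47.8 CPM in wild type vehicle. They were 11.3, 25.8 and 67.5 CPM in transgenic vehicle, and 13.3, 24.4 and 58.05 CPM with Vorinostat. The medians lay closer together than the means, and the highest library was transgenic vehicle replicate 6, which was also highest for miR-135a-5p.

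miR-135a-2-3p, the other strand of the Mir135a-2 hairpin, had a different order. It averaged 34.3 ± 27.4 CPM in wild type vehicle (SD, n = 9), 26.95 ± 11.8 CPM in transgenic vehicle (SD, n = 7) and 37.7 ± 18.2 CPM with Vorinostat (SD, n = 10). In wild type vehicle it ran from 10.98 through 25.2 to 99.9 CPM, the last in replicate 1. In transgenic vehicle it ran from 13.5 through 23.8 to 45.2 CPM, and with Vorinostat from 16.2 through 37.5 to 74.7 CPM, the last in replicate 8. The libraries that were lowest for miR-135a-5p were thus highest for this strand.

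miR-135a-1-3p, the other strand of the Mir135a-1 hairpin, was scarce, with 9 to 68 reads in a library. It averaged 4.50 ± 5.475 CPM in wild type vehicle (SD, n = 9), 2.52 ± 1.27 CPM in transgenic vehicle (SD, n = 7) and 3.24 ± 1.34 CPM with Vorinostat (SD, n = 10). Wild type vehicle ran from 1.38 through 2.36 to 18.7 CPM, again with replicate 1 highest. Transgenic vehicle ran from 1.37 through 2.00 to 4.87 CPM and Vorinostat from 2.15 through 2.82 to 6.68 CPM. Without both libraries that stood apart, its means were 2.72 ± 1.31 (SD, n = 8), 2.52 and 2.86 ± 0.606 CPM (SD, n = 9), and those of miR-135a-2-3p were 26.04 ± 12.8, 26.95 and 33.6 ± 13.5 CPM. Those of miR-135a-5p were then 283 ± 140.2, 343 and 323.5 ± 160.3 CPM, in the same order of groups.

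**Figure D1:**
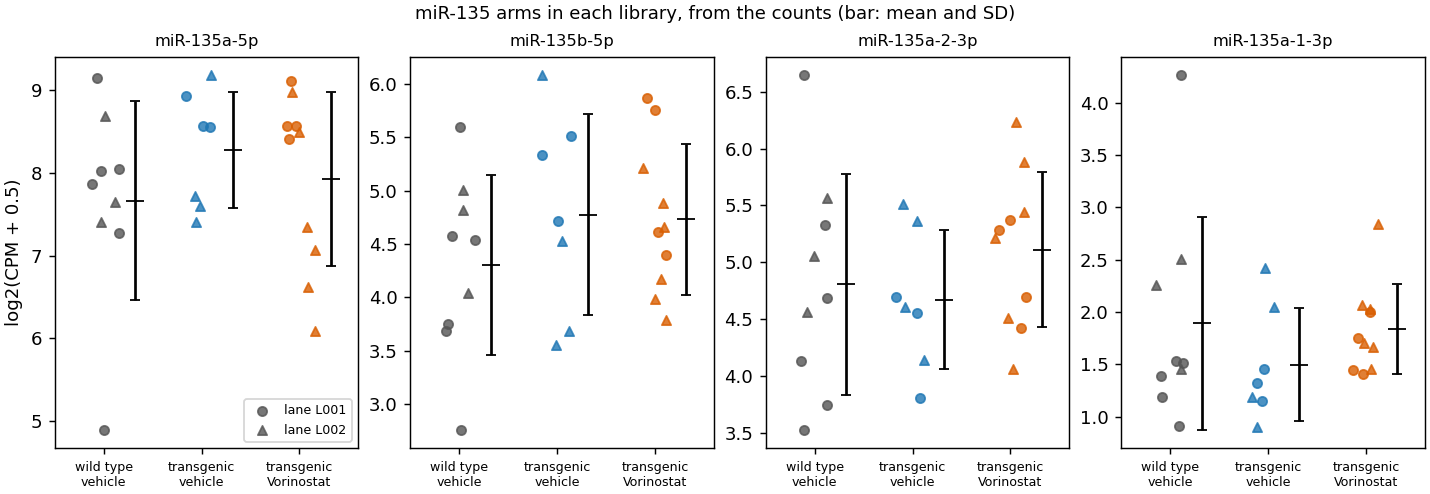
Each panel plots 1 family member as log2(CPM + 0.5), computed from the counts, with 1 point for each library, circles for lane L001, triangles for lane L002, and a bar for the group mean and SD. The 3 groups overlap in every panel, and wild type vehicle replicate 1 is lowest in both 5p panels and highest in both miR-135a 3p panels.

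The genotype comparison set transgenic against wild type mice, both on vehicle, to ask how genotype relates to the family. In the counts, both 5p strands had higher and both 3p strands lower fitted means in transgenic mice, and none of the 4 passed the test. The log2 difference was 0.42 (SE 0.43, 95% interval from -0.47 to 1.31) for miR-135a-5p and 0.49 (SE 0.38) for miR-135b-5p. It was -0.26 (SE 0.39) for miR-135a-2-3p, which turned to 0.03 without wild type vehicle replicate 1, and -0.36 (SE 0.39) for miR-135a-1-3p. The adjusted p was 0.980 for each (edgeR quasi-likelihood test). Without wild type vehicle replicate 1 the difference was also smaller for miR-135a-1-3p (-0.11), miR-135a-5p (0.23) and miR-135b-5p (0.36). Both 5p strands lay above the wild type mean of log2 CPM in 5 of 7 transgenic libraries, and both 3p strands in 2 of 7. Those wild type means include replicate 1, at 4.889 for miR-135a-5p (mean 7.667) and 6.649 for miR-135a-2-3p (mean 4.804). The share of all miRNAs with such counts was not taken, so they are not read as a shift of the family. Over all miRNAs the same test called 0 of 605 (percent called 0), and 13 had an unadjusted p under 0.05. The alternatives called 0 as well, with 18 (DESeq2) and 7 (limma voom) at that unadjusted level. No miRNA had counts whose groups did not overlap (0%). In bulk tissue, fewer cells of a type and less RNA per cell cannot be told apart.

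The Vorinostat comparison asked what treatment changes in transgenic mice, and it shares the 7 transgenic vehicle libraries with the genotype comparison. The log2 difference was -0.20 (SE 0.42, 95% interval from -1.07 to 0.67) for miR-135a-5p and -0.13 (SE 0.37) for miR-135b-5p, which turned to 0.11 without transgenic vehicle replicate 6. It was 0.48 (SE 0.37) for miR-135a-2-3p and 0.31 (SE 0.37) for miR-135a-1-3p. The edgeR adjusted p was 0.908, 0.943, 0.836 and 0.836 in that order, so no member passed. Against the transgenic vehicle mean, 6 of 10 Vorinostat libraries were higher for miR-135a-5p, 4 of 10 for miR-135b-5p and 7 of 10 for each 3p strand. Here too the share of all miRNAs with such counts was not taken. Of 605 miRNAs, 0 were called (percent called 0), with 21 at an unadjusted p under 0.05 in edgeR, 26 in DESeq2 and 16 in limma voom, and the latter tools also called 0.

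All 7 transgenic vehicle libraries shared a replicate number with a Vorinostat library, and same-numbered libraries deviated together in all 7 pairs, although only 1 of 7 correlated best with its own number. Within these 7 pairs miR-135a-5p was lower with Vorinostat in 6, by a mean of -0.49 ± 0.64 on the log2 scale (SD, n = 7 pairs), from -1.63 to 0.41. The -1.63 came from the pair with Vorinostat replicate 8, which stood apart. miR-135a-2-3p was higher in 5 of 7 (0.49 ± 0.59) and miR-135a-1-3p in 6 of 7 (0.35 ± 0.32), whereas miR-135b-5p was higher in 4 and lower in 3. The share of all miRNAs that were as one-sided over the pairs was not counted. A fit of the 7 pairs with the number as a block called 5 of 567 miRNAs and no family member. By unadjusted p in that fit, miR-135a-5p ranked 123 and miR-135a-2-3p 129 of the 567. The paired log2 difference of miR-135a-5p was -0.49 (SE 0.20, edgeR adjusted p = 0.150), and that of miR-135a-2-3p 0.50 (SE 0.21, adjusted p = 0.154). It was 0.39 (SE 0.22, adjusted p = 0.293) for miR-135a-1-3p and -0.04 (SE 0.25, adjusted p = 0.919) for miR-135b-5p. The 5 miRNAs called were miR-379-5p, miR-129-5p and miR-182-5p, which were higher, and miR-339-5p and miR-29c-3p, which were lower, each with an adjusted p of 0.0420; they were named after their values were seen.

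Vorinostat-treated transgenic mice were also set against wild type mice on vehicle. The log2 difference was 0.22 (SE 0.40) for miR-135a-5p, 0.36 (SE 0.35) for miR-135b-5p, 0.21 (SE 0.35) for miR-135a-2-3p and -0.05 (SE 0.36) for miR-135a-1-3p, which turned to 0.18 without wild type vehicle replicate 1. The edgeR adjusted p was 0.9997 for each. This comparison called 0 of 605 miRNAs (percent called 0), with 19 at an unadjusted p under 0.05 in edgeR, and DESeq2 (29 unadjusted) and limma voom (23 unadjusted) called 0. Within lane L002 the sign of both 5p strands turned, to -0.26 for miR-135a-5p and -0.17 for miR-135b-5p. The mean of miR-135a-5p in that lane was 221 ± 173 CPM with Vorinostat (SD, n = 6) and 261 ± 132 CPM in wild type (SD, n = 3), whereas in L001 it was 413 ± 94.6 (SD, n = 4) and 251 ± 179 CPM (SD, n = 6). The difference between lanes was not past the threshold for any member in any comparison (edgeR interaction, smallest adjusted p = 0.862).

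The authors' deposited normalized values gave another picture of the same libraries. These are log2 values for 674 miRNAs, and the sources used here do not describe the steps behind them. All 4 members are among them. miR-135a-5p averaged 9.41 ± 1.05 in wild type vehicle (SD, n = 9), 11.2 ± 0.43 in transgenic vehicle (SD, n = 7) and 9.65 ± 0.76 with Vorinostat (SD, n = 10). The 7 transgenic vehicle libraries ran from 10.6 to 11.97, above the highest wild type value of 10.3 and the highest Vorinostat value of 10.5. miR-135a-1-3p had the opposite pattern: transgenic vehicle ran from 2.51 to 3.17, below the lowest wild type value of 3.23 and the lowest Vorinostat value of 3.27. miR-135b-5p ran from 5.82 to 8.04 in wild type vehicle, from 7.95 to 9.43 in transgenic vehicle and from 6.71 to 8.66 with Vorinostat, so the groups overlapped. miR-135a-2-3p overlapped as well, with means of 8.20 ± 0.72, 7.80 ± 0.47 and 8.55 ± 0.42. Over all 674 miRNAs, groups did not overlap for 7.57% in the genotype comparison and for 13.6% in the Vorinostat comparison.

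**Figure D2:**
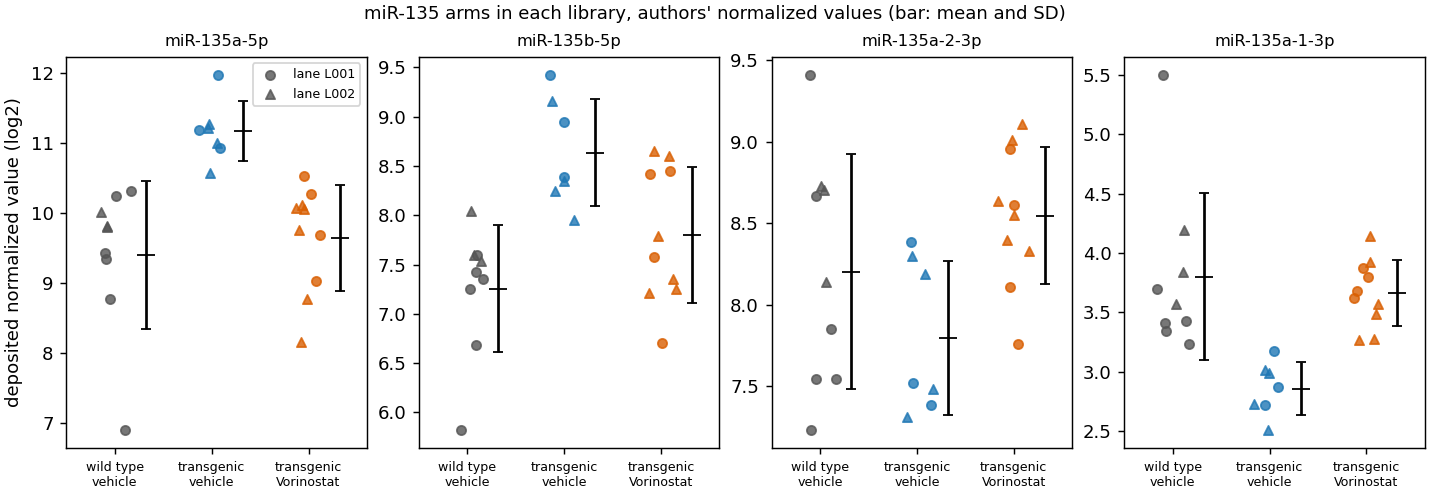
Each panel plots 1 family member in the authors' deposited normalized values (log2), with 1 point for each library, circles for lane L001, triangles for lane L002, and a bar for the group mean and SD. Transgenic vehicle lies above both other groups for miR-135a-5p and below both for miR-135a-1-3p.

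Tested with limma on these deposited values, 3 of 4 members passed in the genotype comparison, where 54.3% of all 674 miRNAs did. miR-135a-5p differed by 1.76 (SE 0.38, adjusted p = 0.00229), miR-135b-5p by 1.38 (SE 0.31, adjusted p = 0.00250) and miR-135a-1-3p by -0.94 (SE 0.23, adjusted p = 0.00342). miR-135a-2-3p differed by -0.41 (SE 0.27, adjusted p = 0.206). In the Vorinostat comparison all 4 members passed, against 53.4% of all miRNAs. The differences were -1.52 (SE 0.38, adjusted p = 0.00307) for miR-135a-5p, -0.84 (SE 0.30, adjusted p = 0.0211) for miR-135b-5p, 0.75 (SE 0.26, adjusted p = 0.0186) for miR-135a-2-3p and 0.81 (SE 0.22, adjusted p = 0.00495) for miR-135a-1-3p. With Vorinostat against wild type, no member passed and 0.890% of miRNAs did. The call of miR-135b-5p under Vorinostat was lost without transgenic vehicle replicate 3 (-0.70, adjusted p = 0.0602) or replicate 6 (-0.75, adjusted p = 0.0507).

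With more than 50% of all miRNAs called, a call among the 4 members is near the background of these values. The median difference of all miRNAs in them was 0.19 for genotype and -0.24 for Vorinostat, and relative to these medians miR-135a-5p differed by 1.57 and by -1.28. In the counts the medians were 0.03 and -0.01. The deposited value of miR-135a-5p exceeded log2(CPM + 0.5) from the counts by 1.74 ± 0.56 in wild type vehicle, 2.88 ± 0.68 in transgenic vehicle and 1.72 ± 0.70 with Vorinostat (SD). For miR-135a-1-3p it exceeded it by 1.91 ± 0.42, 1.36 ± 0.53 and 1.83 ± 0.42. The step from counts to deposited values thus differed by group and in opposite directions for these strands, and its part in the calls was not tested. Whether the group labels entered that step is not stated. The limma p-values and the separation of groups therefore describe the deposited values as they stand, and cannot be read as spread between independent libraries. Within lane L001 no miRNA was called on the deposited values in the genotype or the Vorinostat comparison, whereas within L002 150 were called for genotype and 335 for Vorinostat. miR-135a-5p then differed by 2.19 (adjusted p = 0.136) in L001 and 1.13 (adjusted p = 0.0546) in L002 for genotype, with fewer libraries in each. Under Vorinostat it differed by -1.48 (adjusted p = 0.309) in L001 and -1.52 (adjusted p = 0.00304) in L002.

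**Figure D3:**
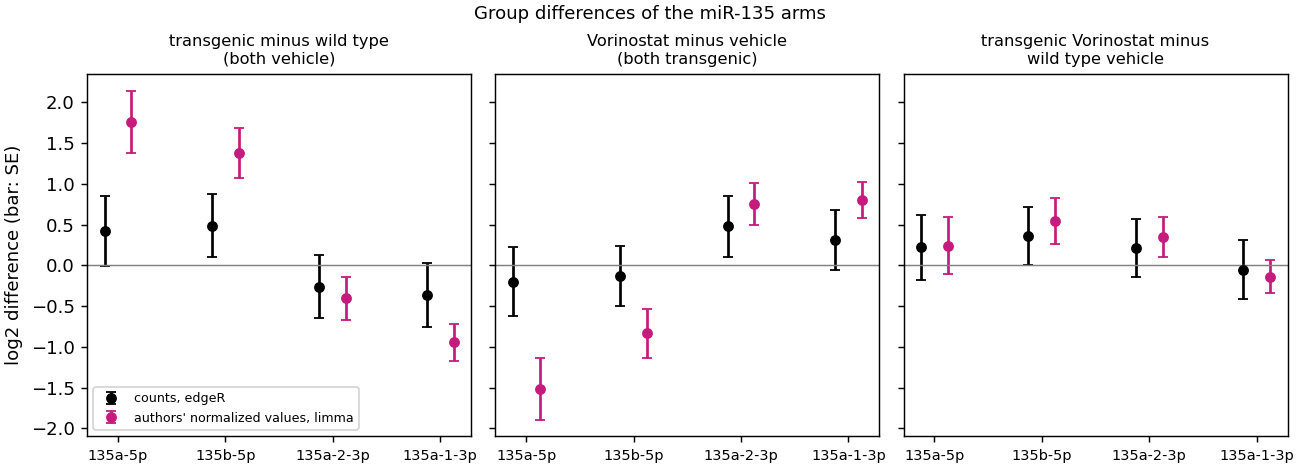
Points are log2 differences of the 4 family members in 3 comparisons, in black from the counts (edgeR) and in colour from the authors' normalized values (limma), with bars for the SE. The sign is the same from both sources for every member and comparison, while the sizes for transgenic vehicle differ, such as 0.42 against 1.76 for miR-135a-5p by genotype.

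The authors' deposited table of co-expression modules, which was built from these libraries and is not independent of them, put the strands on opposite sides. miR-135a-5p and miR-135b-5p were assigned to the turquoise module, with memberships of 0.949 and 0.704 on a scale from -1 to 1 in the authors' deposited table. In the same authors' deposited table, miR-135a-2-3p and miR-135a-1-3p were assigned to the blue module, with memberships of 0.819 and 0.851. The turquoise memberships of these 3p strands in the authors' deposited table were -0.779 and -0.859. Turquoise held 404 and blue 197 of the 674 miRNAs.

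Across libraries miR-135a-5p moved opposite to both 3p strands in the counts too. Over 26 libraries, log2 CPM of miR-135a-5p and miR-135a-1-3p had a Pearson r of -0.798 (adjusted permutation p = 3e-05) and a Spearman rho of -0.638 (adjusted permutation p = 0.00177). Without the 2 libraries farthest from the median, Vorinostat replicate 8 and wild type vehicle replicate 1, r was -0.541. Within lanes it was -0.842 (L001) and -0.707 (L002), and within wild type vehicle, transgenic vehicle and Vorinostat -0.917, -0.683 and -0.701. For miR-135a-5p and miR-135a-2-3p, which are cut from the same hairpin at Mir135a-2, r was -0.633 (adjusted permutation p = 6e-04) and rho -0.486 (adjusted permutation p = 0.0195). That r fell in size to -0.366 without these 2 libraries, and within lanes it was -0.549 and -0.706. Wild type vehicle replicate 1 was in L001 and Vorinostat replicate 8 in L002, so neither lane is free of them. Within wild type vehicle and Vorinostat that r was -0.719 and -0.707. In transgenic vehicle, which holds neither library, it was -0.317. The 6 pairs of members formed the family of tests adjusted for, and CPM values share their library's total. The permutation p-values are against no relation at all. Of 604 other tested miRNAs, 87 had a rho of -0.7 or below with miR-135a-5p, lower than that of either 3p strand. The opposite movement is therefore not particular to these strands.

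Strands of the same arm moved together. miR-135a-5p and miR-135b-5p, from hairpins on different chromosomes, had r = 0.784 (adjusted permutation p = 3e-05) and rho = 0.772 (adjusted permutation p = 0.00012), with r = 0.752 without the 2 farthest libraries and 0.818 and 0.725 within lanes. How the authors assigned reads between these near-identical strands was not stated, and its part in the relation was not tested. miR-135a-2-3p and miR-135a-1-3p had r = 0.703 (adjusted permutation p = 6e-05) and rho = 0.577 (adjusted permutation p = 0.00484). That r was 0.496 without the 2 farthest, and 0.741 and 0.603 within lanes. It was 0.809 within wild type vehicle, 0.315 within transgenic vehicle and 0.778 within Vorinostat. A rho of 0.7 with miR-135a-5p was reached by 118 of 604 other tested miRNAs, with miR-135a-2-3p by 51 and with miR-135b-5p by 6. miR-135b-5p and miR-135a-1-3p had r = -0.531 (adjusted permutation p = 0.00526) and rho = -0.403 (adjusted permutation p = 0.0508). For miR-135b-5p the 2 libraries farthest from the median were transgenic vehicle replicate 6 and wild type vehicle replicate 1. Without these 2, r fell in size to -0.225 and rho to -0.241, so this relation rested largely on them. Without both libraries that stood apart, r was -0.295. Within lanes r was -0.600 and -0.371. miR-135b-5p and miR-135a-2-3p had r = -0.209 (adjusted permutation p = 0.305) and rho = -0.081 (adjusted permutation p = 0.692). Without transgenic vehicle replicate 6 and wild type vehicle replicate 1 the sign turned, to r = 0.03 and rho = 0.05. Without both libraries that stood apart r was 0.07, and within lanes it was -0.136 and -0.258.

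**Figure D4:**
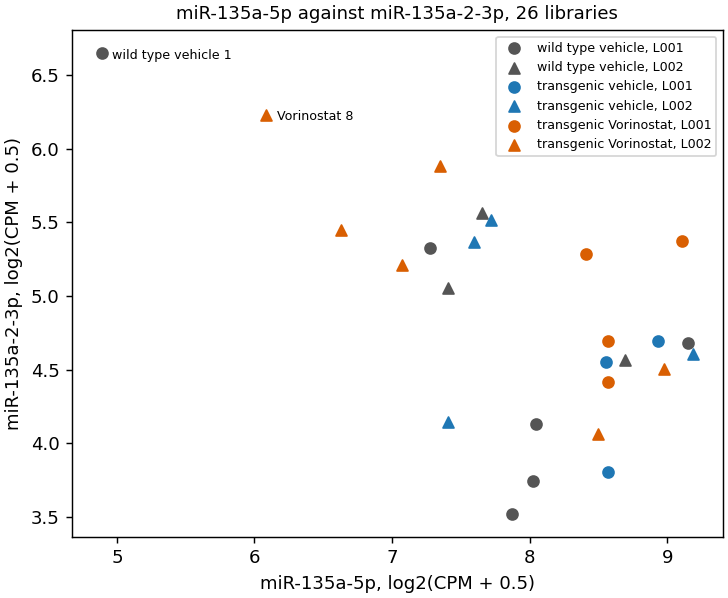
Each point is a library, placed by log2(CPM + 0.5) of miR-135a-5p and of miR-135a-2-3p, with colours for groups and shapes for lanes. Wild type vehicle replicate 1 and Vorinostat replicate 8 lie at the upper left, and r over 26 libraries was -0.633.

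Read shares put these relations on a scale that does not depend on the library total. The 3p strands took 18.7 ± 24.2% of all miR-135a reads in wild type vehicle (SD, n = 9), 9.69 ± 6.57% in transgenic vehicle (SD, n = 7) and 17.8 ± 16.5% with Vorinostat (SD, n = 10). The medians were 6.64%, 6.26% and 9.06%, below the mean in each group, and the means of 2 groups were raised in part by single libraries. In wild type vehicle replicate 1 the share was 80.3%, from 57 of 71 reads (95% exact binomial interval from 69.1 to 88.8%). In Vorinostat replicate 8 it was 54.7%, from 256 of 468 reads (95% exact binomial interval from 50.1 to 59.3%). Without both, the means were 10.96 ± 7.545% (SD, n = 8), 9.69 ± 6.57% (SD, n = 7) and 13.7 ± 10.8% (SD, n = 9). In these 2 libraries the strand that is usually lost outnumbered the loaded one. Intervals cover counting error only, since reads without molecular identifiers are not independent molecules.

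The Mir135a-2 hairpin gave most of the 3p reads in every library. miR-135a-2-3p held 89.1 ± 4.35% of both miR-135a 3p strands in wild type vehicle (SD, n = 9), 90.8 ± 4.39% in transgenic vehicle (SD, n = 7) and 91.5 ± 2.39% with Vorinostat (SD, n = 10), and never less than 82.1%. This share describes the 3p strands and need not hold for the shared 5p strand. miR-135b-5p held 9.42 ± 4.41%, 8.11 ± 1.86% and 10.5 ± 4.74% of the reads of both 5p strands in the same groups. The sum of both 5p strands was 277 ± 166 CPM in wild type vehicle, 375 ± 178 CPM in transgenic vehicle and 327 ± 183 CPM with Vorinostat (SD).

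The miRNAs most like miR-135b-5p came from a cluster on another chromosome. By Spearman rho of log2 CPM over 26 libraries, the 5 tested miRNAs most like it were miR-429-3p (0.922), miR-200b-3p (0.920), miR-200a-3p (0.839), miR-135a-5p (0.772) and miR-34a-5p (0.757). Without both libraries that stood apart, the first 3 had 0.937, 0.937 and 0.940, and miR-135a-5p had 0.747. Of the 604 other tested miRNAs, 6 reached a rho of 0.7 with miR-135b-5p. These values describe the libraries and carry no p. The remaining miR-200 family members, miR-200c-3p and the untested, scarce miR-141-3p, had 0.676 and 0.604, below miR-135a-5p. The 3 leading miRNAs belong to that family, known for keeping cells epithelial by repressing the Zeb transcription factors and, in the brain, for a role in the differentiation of olfactory neurons. Their sequences are shown to set their seeds, in capitals, beside that of the miR-135 5p strands.
mmu-miR-200b-3p: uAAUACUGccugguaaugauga
mmu-miR-429-3p: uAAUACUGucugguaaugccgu
mmu-miR-200a-3p: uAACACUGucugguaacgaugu
They lie within 1.79 kb of each other on the minus strand of chromosome 4, and their seeds are unlike the miR-135 seeds.

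The likeness was present in both lanes and in each group. The rho of miR-135b-5p with miR-200b-3p was 0.890 in L001 and 0.890 in L002, and 0.933, 0.964 and 0.855 within wild type vehicle, transgenic vehicle and Vorinostat. miR-200b-3p averaged 68.5 ± 35.3 CPM in wild type vehicle, 100.9 ± 75.2 CPM in transgenic vehicle and 99.2 ± 56.8 CPM with Vorinostat (SD). Its log2 difference by genotype was 0.55 (SE 0.41, edgeR adjusted p = 0.980). miR-204-5p, a defining marker of choroid plexus that was listed with the miR-200 family, averaged 433 ± 74.5 CPM over all libraries and had a rho of -0.252 with miR-135b-5p. That rho was not stable: it was 0.187 in L001 and -0.648 in L002, and 0.633, -0.893 and -0.442 within wild type vehicle, transgenic vehicle and Vorinostat. Of the other markers on that list outside the miR-200 family, miR-211-5p had -0.162 and miR-34b-3p -0.149, whereas miR-449a-5p, an untested miRNA of multiciliated cells at a mean of 0.406 CPM, had 0.675 with miR-135b-5p and 0.770 with miR-135a-5p. The 7 choroid plexus and ependyma markers summed to between 383 and 787 CPM, with medians of 611, 622 and 640.5 CPM in the same groups. The part of other cell types in the likeness was not tested. miR-135a-5p had a rho of 0.632 with miR-200b-3p, 0.579 with miR-200a-3p and 0.753 with miR-429-3p, and 0.670, 0.683 and 0.783 without both libraries that stood apart. The difference between the 5p strands in this likeness was not tested.

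**Figure D5:**
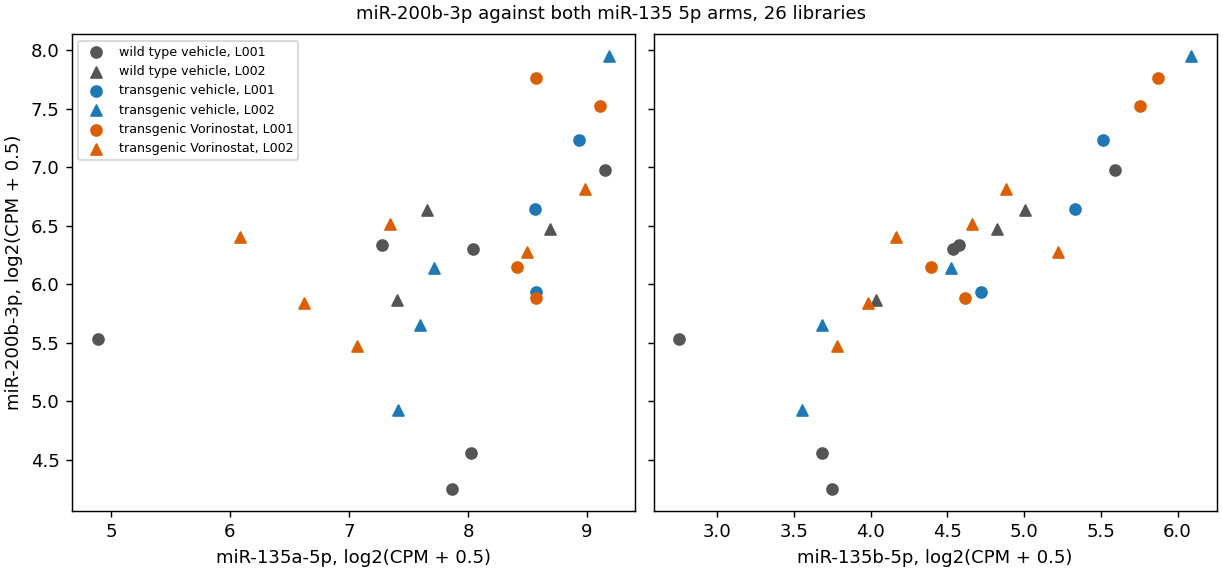
Each point is a library, with miR-200b-3p on the vertical axis and miR-135a-5p (left) or miR-135b-5p (right) on the horizontal axis, all as log2(CPM + 0.5), with colours for groups and shapes for lanes. The Spearman rho was 0.632 on the left and 0.920 on the right.

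miR-135a-5p belonged to a broad pattern. The 5 miRNAs most like it were miR-195a-5p (rho 0.922), miR-592-5p (0.916), miR-150-5p (0.912), miR-34a-5p (0.902) and miR-154-3p (0.894), and they had 0.902, 0.893, 0.890, 0.875 and 0.865 without both libraries that stood apart. Of 604 other miRNAs, 118 reached a rho of 0.7 with it and 87 reached -0.7 or below. The lowest was -0.919 with miR-344d-3-5p, named after its value was seen.

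miRNAs that share the family's roles were read from lists chosen with earlier results of these data known. The serotonin list holds miRNAs reported to act on the serotonin transporter or on serotonin receptors, and 7 of its 7 miRNAs were tested and 0 called in each comparison. Its median log2 difference in the counts was 0.31 by genotype, -0.28 by Vorinostat and 0.02 for Vorinostat against wild type, against 0.03, -0.01 and 0.01 over all miRNAs. The list's summed level was lowest in both libraries that stood apart, at 6294 CPM in wild type vehicle replicate 1 (group median 63650) and 36870 CPM in Vorinostat replicate 8 (group median 67000). Without them its medians were 0.15, -0.20 and -0.07, against -0.01, -0.02 and -0.01 over all miRNAs, with 0 called. Its most abundant miRNAs included miR-26a-5p (0.15, SE 0.27, by genotype) and miR-16-5p, which targets the serotonin transporter (0.40, SE 0.50, by genotype and -0.50, SE 0.49, by Vorinostat). miR-195a-5p (0.31, SE 0.34) and miR-34a-5p (0.50, SE 0.41) were the others named. The sign was positive for 6 of 7 by genotype and negative for 6 of 7 by Vorinostat, which share the transgenic vehicle libraries, and for 5 of 7 in each without both libraries that stood apart. These signs are not separate observations: the listed miRNAs named here had a rho from 0.771 to 0.922 with miR-135a-5p over the same libraries. The share of each sign over all miRNAs was not counted, so these signs are not read as a shift of the list.

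The plasticity and activity list had 23 of 23 miRNAs tested and 0 called in each comparison, with medians of 0.15, -0.09 and -0.02. Without both libraries that stood apart these were 0.01, -0.05 and -0.01, with 0 called. Its most abundant miRNAs were miR-128-3p, miR-9-5p, miR-26a-5p and miR-218-5p, all abundant in neurons, with genotype differences of 0.01 (SE 0.14), 0.19 (SE 0.16), 0.15 (SE 0.27) and 0.03 (SE 0.18). Hairpins near those of the family gave 3 tested miRNAs of 4, with 0 called. let-7g-5p, whose hairpin lies 24.6 kb from Mir135a-1, averaged 14960 CPM and had a rho of 0.780 with miR-135a-5p, where 118 of 604 miRNAs reached 0.7. let-7g-3p, from the same hairpin, averaged 1.25 CPM and had a rho of 0.301. miR-1251-5p, whose hairpin lies 65.0 kb from Mir135a-2 in an intron of the same Rmst gene, averaged 2.14 CPM and had a rho of -0.184 with miR-135a-5p.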

How the data were processed

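Per the labels' protocols, CA1 was dissected and frozen, TruSeq Small RNA libraries were prepared, and a HiSeq2000 read 50 bp from a single end. FastQC 0.11.5 and mm10 are named in the submitters' processing notes; the sources used here give no aligner, annotation or counting rules. The authors deposited, for each mature miRNA, raw counts, normalized log2 values whose making is not stated, and module membership scores with their p-values, which the authors computed and which were not used here.

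Counts were tested with edgeR 4.0.16 in R 4.3.3 (TMM factors, filterByExpr with a minimum count of 10 and total of 15, quasi-likelihood test, 1 fit of 26 libraries, two-sided). A miRNA was called at a p-value under 0.05 after Benjamini-Hochberg adjustment over all 605. The deposited log2 values were tested with limma 3.58.1, which was added after seeing the data. CPM are counts divided by library total times TMM factor, on a scale of 1000000. Correlation p-values come from 100000 permutations, which cannot give an unadjusted p below about 1e-05. The adjusted permutation p of 3e-05 rests on that limit and is an upper bound. DESeq2 1.42.0, limma voom, other scalings and filters, lanes, replicate blocks and left-out libraries were alternatives.

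Within groups, none of 102 pairs of libraries had identical counts. Replicate numbers come from the labels; same-numbered transgenic vehicle and Vorinostat libraries deviated together in 7 of 7 pairs (r from 0.257 to 0.639). On simulated counts for the genotype comparison (593 miRNAs), edgeR recovered 72.4% of 2-fold and 97.9% of 4-fold changes, and 9 of its 173 calls were false. The changed miRNAs were drawn at random. All 4 members had a within-group SD above the median of tested miRNAs, and that of miR-135a-5p was above 88.8% of them. These percentages therefore do not give the recovery for the family.

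The members and lists were chosen with earlier results of these data known. Named miRNAs were the members, the 5 most alike for each 5p strand and up to 4 most abundant of each list; other miR-200 family and marker values were chosen after they were seen. Positions are from GENCODE and RefSeq for GRCm38.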

Additional observations from a re-analysis of the deposited data

Results flagged for a closer look

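Values of 1 library lay far from the rest of its group 5 times among 21 sets of values looked at, and chance flags about 1 in 20. In wild type vehicle replicate 1, miR-135a-5p was at 29.13 CPM (14 reads), below the other wild type libraries. In the same library miR-135a-1-3p was at 18.73 CPM (9 reads), and the 3p strands took 80.28% of miR-135a reads, both above the other wild type libraries. In Vorinostat replicate 8, miR-135a-1-3p was at 6.677 CPM (21 reads) and miR-135b-5p held 20.6% of the reads of both 5p strands, each above the other Vorinostat libraries.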

How the results depend on the processing

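From the counts no member was called under any alternative. Of the members' differences in counts, 353 of 365 values kept their sign. Most of these values came from fits with 1 library left out (203 kept, 5 reversed), which share nearly all libraries with the main fit. In the other alternatives 150 kept it and 7 reversed. miR-135a-2-3p by genotype turned to 0.032 without both libraries that stood apart, and ran from -0.39 to 0.028 with each library left out, positive without wild type vehicle replicate 1. miR-135b-5p under Vorinostat turned to 0.037 within L001, and ran from -0.36 to 0.11 with each library left out, positive without transgenic vehicle replicate 6. For Vorinostat against wild type, miR-135a-1-3p turned to 0.0043 with the replicate block, 0.11 with limma voom and 0.042 without both libraries, and ran from -0.20 to 0.18 with each left out. Within L002 miR-135a-5p was at -0.26 and miR-135b-5p at -0.17. The replicate block over all 26 libraries called 0 miRNAs, as did the other alternatives from the counts apart from the 7 pairs alone, where the block called 5. Deviations of same-numbered wild type and transgenic libraries had r from -0.50 to 0.51 (vehicle) and -0.58 to 0.63 (Vorinostat). Of these, 2 of 6 and 2 of 9 correlated best with their own number. The labels do not say whether a shared number marks a pair, for these libraries or for the transgenic ones. On the authors' values, within L001 0 miRNAs were called in each of the 3 comparisons, and within L002 335 were called under Vorinostat, 150 by genotype and 3 with Vorinostat against wild type, with fewer libraries. For the latter, calls were 2 with the replicate block, 18 without both libraries that stood apart and 2 to 16 with each left out, the highest without wild type vehicle replicate 1. Differences there turned to 0.022 for miR-135a-1-3p without both libraries (from -0.21 to 0.075 with each left out) and to -0.39 for miR-135a-5p within L002 (from -0.073 to 0.41 with each left out). Within lanes, 10 member calls on the authors' values were lost. Each lane held fewer libraries, and no cause of these losses was tested, the number of libraries included. A mean of at least 10 CPM left miR-135a-1-3p out. The exact test planned for members below the filter was not needed, since all 4 passed it. With 9 to 68 reads in a library, depth limits miR-135a-1-3p most, and wild type vehicle replicate 1 had 3 reads of miR-135b-5p.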

Other observations

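The base composition of miRNAs was set beside their likeness to the family, as a description over 514 of the 605 tested miRNAs (85.1%) with a sequence in the RefSeq table. miR-135a-5p is 30.4% G and C, miR-135a-2-3p 47.6% and miR-135a-1-3p 59.1%. Across miRNAs, which are not independent replicates and share each library, the rho with miR-135a-5p fell with G and C content (Spearman rho -0.375), and the rho with miR-135a-1-3p rose with it (0.383). miRNAs up to 45.5% G and C had a median rho of 0.405 with miR-135a-5p, and those above 54.5% a median of -0.356. The values without both libraries that stood apart were -0.374 and 0.383. This pattern was noticed in these data and no cause was tested.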
